A study of Mus musculus with 6 samples.

Results

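Defensins are short secreted antimicrobial peptides, and the genes that encode them were followed here in epithelial cells of the thymic medulla (mTECs), which present antigens of many tissues to maturing thymocytes. Members were the genes whose Agilent symbol in the authors' array matrix begins with Defa, Defcr or Defb, each represented by its probe of highest mean over 6 array columns. The rule found 39 genes of the 21538 with a symbol, measured by 44 of 41174 probes. They were 13 α-defensin genes (Defa and Defcr, the cryptdins and cryptdin-related sequences) and 26 β-defensin genes (Defb). The rule reads names and uses no measured level or difference.

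The study compared mTECs of Mbd1 wild type (WT) and Mbd1 knockout (KO) mice aged 30 days. The Mbd1 protein carries a methyl-CpG-binding domain, through which it attaches to methylated DNA. All mice gave cells through the same sort, which kept EpCAM+ and MHC class II+ cells and left out cells positive for CD11c, CD45, Ly51 or the dead-cell dye DAPI. Each genotype had 3 biological replicates, 1 array each, after the authors had removed 1 more per genotype in quality control, and the RNA was amplified and labelled with Cy3. The labels do not say which part of Mbd1 was deleted, which strain was used or how many mice made up a replicate.

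The genotype of each value is the name of its column in the authors' matrix. This matters, because 5 of the 6 columns had the same probe ranks as a scanner file (rank correlation of 1), and 4 of these 5 scanner files were titled with the other genotype. The WT columns 1, 2 and 3 equalled the arrays titled WT 2, KO 1 and KO 3, and the KO columns 2 and 3 equalled those titled WT 1 and WT 3. KO column 1 equalled none, and the array titled KO 2 equalled no column. Counts of arrays and values of scanner files under their titles therefore include an array without a column and lack KO column 1. Mbd1 itself followed the column names, at 8.81 ± 0.20 in WT and 5.62 ± 0.02 in KO (SD, n = 3, log2 intensity, difference -3.19, limma adjusted p = 3.85e-05). Every direction below is that of the column names; with the scanner files taken under their titles many of them turn or shrink, which is given beside the genes it touches most. The 3 arrays titled WT were on slide 1 and the 3 titled KO on slide 2, so in those values genotype title and slide cannot be told apart. All 14 mTEC markers on the list, Epcam, Aire, H2-Aa, Krt5 and Krt14 among them, were well above background on all 6 arrays.

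As background, α-defensins of the mouse are products of Paneth cells at the base of the small intestinal crypts, where the protease Mmp7 cuts the precursor to the active peptide, while mouse neutrophils lack them. β-defensins are made by skin, airway, kidney and other epithelia, some constitutively and some after contact with microbes, and many are made in the epididymis. In mTECs such genes count as tissue antigens, transcripts of other organs that are expressed so that T cells reactive to them can be removed or diverted.

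Most defensin genes gave a signal in these cells. A gene was tested where 3 or more of the 6 arrays, whatever their titles, showed its probe well above background, and 32 of the 39 members passed (82.1%, against 86.5% of all 21538 genes). On all 6 arrays 28 members were well above background (71.8%, against 77.5%). Of the α-defensin genes 11 of 13 were tested, each of these 11 with signal on all 6 arrays. Of the β-defensin genes 21 of 26 were tested, 17 of them with signal on all 6 arrays. Each value below is log2 intensity of 1 probe, and since probes differ in how they bind, levels were not compared between genes.

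The 7 members under the filter were the cryptdin-related Defcr-rs2 and Defcr-rs10 and the β-defensins Defb9, Defb10, Defb12, Defb13 and Defb40. Their values lay between 4.91 and 5.67 in all 6 columns. The level that 95% of never-detected probes did not exceed was 5.46 to 5.62, depending on the column, so these genes sat at or near background. Defcr-rs10, Defb10, Defb12 and Defb40 were well above background on none of the arrays. The other 3 were so on 1 array each, that titled KO 2, which equals no column. At the edge of the filter, Defb35 passed with 3 arrays, that titled KO 2 among them, and Defb34 with 4. Their values were 5.43 to 5.67 and 5.60 to 5.94.

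**Figure D1:**
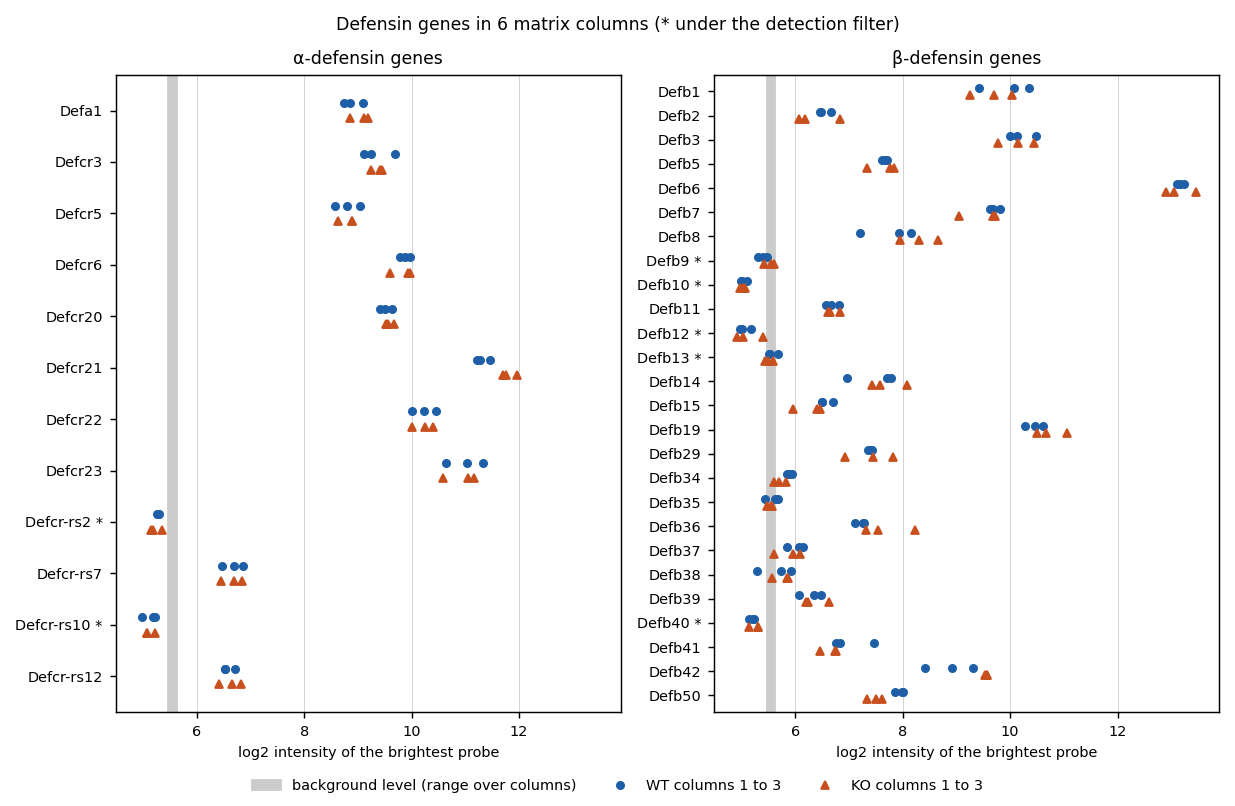
Log2 intensity (x axis) of the brightest probe of the defensin genes, all but 1 of the 39 (y axis), in the 3 WT columns (circles) and 3 KO columns (triangles) of the authors' matrix, with the range of the column background levels shaded (5.46 to 5.62) and genes under the detection filter starred. The 7 starred genes lie in, below or just above the shaded band, and KO and WT symbols separate in 7 of the 32 tested genes.

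Between the genotypes no defensin gene passed. Of the 32 tested members 0 had an adjusted p under 0.05 (limma with Benjamini-Hochberg adjustment over 18636 genes), where 17 of all genes did, 0.0912% of those tested (15 higher, 0.0805%, and 2 lower, 0.0107%). The smallest adjusted p among the members was 0.943. At an unadjusted p under 0.05 stood 3 members, Defb42, Defcr21 and Defb50 (9.38%), against 4.08% of all genes. The differences, KO minus WT, ran from -0.46 to 0.67 on the log2 scale with a median of -0.01, the same as the median of all genes, and 16 were positive and 16 negative. For 29 of the 32 the whole 95% interval lay within 1 log2 unit of 0, so a change larger than that was outside the interval for those genes; the others were Defb42, Defb36 and Defb8. The authors' deposited table likewise lists 0 of the 44 defensin probes with an FDR under 0.05, against 26 of all 41174 probes.

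**Figure D2:**
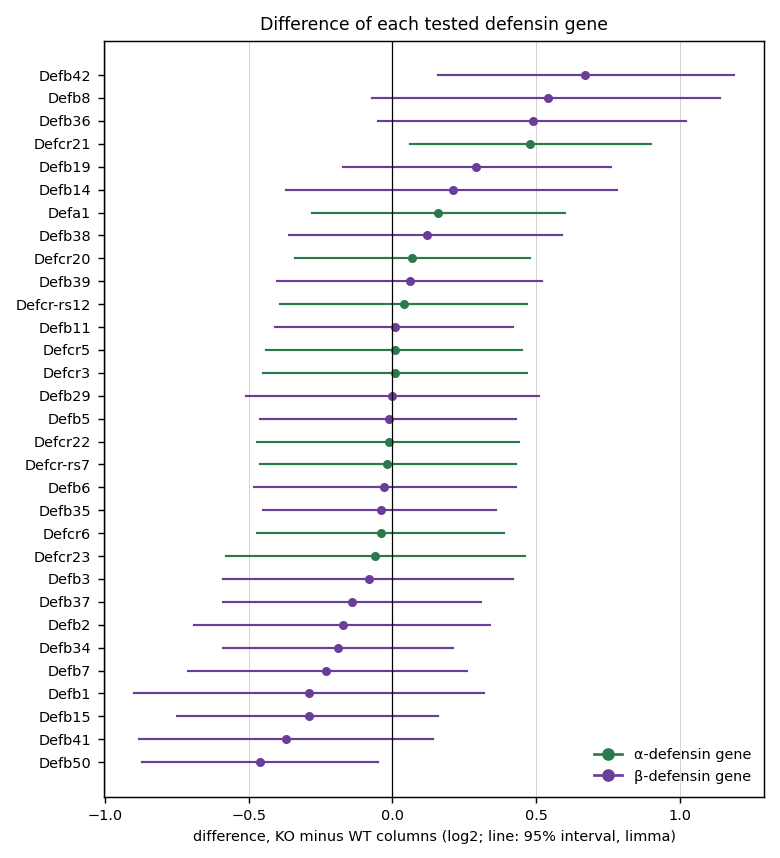
Difference between KO and WT columns (x axis, log2) with its 95% interval from limma for the tested defensin genes, all but 1 of the 32 (y axis, ordered by difference), with α-defensin and β-defensin genes in different colours. The points run from -0.46 (Defb50) to 0.67 (Defb42), and the intervals of Defb42, Defcr21 and Defb50 alone leave out 0.

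In 7 members the 3 KO columns did not overlap the 3 WT columns (21.9% of the 32, against 8.22% of all genes). KO lay above WT in 3 of them (Defb42, Defb36 and Defcr21; 3.93% of all genes) and below in 4 (Defb50, Defb41, Defb15 and Defb34; 4.29% of all genes). All 7 failed the adjusted test, and in 25 members the groups overlapped. The members are neighbours in a few gene clusters and some share sequence, so they are not independent of each other.

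The α-defensin genes lie on chromosome 8 where the matrix places them, and 10 of the 11 tested differed by at most 0.16 in size. Defcr21 (current symbol Defa21), a cryptdin, was the exception. It read 11.28, 11.22 and 11.46 in WT columns 1 to 3 and 11.97, 11.75 and 11.70 in KO columns 1 to 3. All KO values were above all WT values. The difference was 0.48 (SE 0.19, 95% interval 0.06 to 0.90, unadjusted p = 0.0272, limma adjusted p = 0.999), and it lay between 0.40 and 0.55 when any 1 column was left out. With the scanner files under their titles it was 0.04.

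Defcr22 (Defa22) has the same promoter window as Defcr21 in the RefSeq table. It read 10.45, 10.22 and 10.01 in WT and 10.24, 10.39 and 10.0 in KO, fully overlapping, with a difference of -0.01 (95% interval -0.47 to 0.44). Defcr20 (Defa20), whose promoter matches theirs at 97.7% of positions, read 9.64, 9.40 and 9.51 in WT and 9.56, 9.52 and 9.67 in KO, a difference of 0.07 (95% interval -0.34 to 0.48). Whether the difference of Defcr21 departs from those of Defcr22 and Defcr20 was not tested. Defcr23 (Defa23) shares its promoter window with Defcr-rs7 (Defa31) in turn. Defcr23 read 11.32, 10.64 and 11.03 in WT and 11.16, 10.59 and 11.05 in KO, where the spread within a genotype (SD 0.34 and 0.31) was larger than the difference of -0.06.

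The upstream sequences are shown because Mbd1 binds CpG and because the Defcr21 and Defcr22 probes, listed under different genes, share a window. They are RefSeq promoters of build GRCm38.p6, running from 250 bases before to 50 bases after the gene start, 5′ to 3′ on the gene's strand, with each CG in capitals. The Defcr21 window is chr8:21025295-21025594 (plus strand), and that of Defcr22 has the same letters. The Defcr23 window is chr8:21054790-21055089 (plus strand), the same letters as for Defcr-rs7.
Defcr21: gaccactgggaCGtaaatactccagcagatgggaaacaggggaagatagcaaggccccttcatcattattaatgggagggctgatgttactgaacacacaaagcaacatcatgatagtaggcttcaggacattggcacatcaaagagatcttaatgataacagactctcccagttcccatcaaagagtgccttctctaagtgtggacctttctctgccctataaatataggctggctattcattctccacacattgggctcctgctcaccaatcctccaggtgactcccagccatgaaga
Defcr23: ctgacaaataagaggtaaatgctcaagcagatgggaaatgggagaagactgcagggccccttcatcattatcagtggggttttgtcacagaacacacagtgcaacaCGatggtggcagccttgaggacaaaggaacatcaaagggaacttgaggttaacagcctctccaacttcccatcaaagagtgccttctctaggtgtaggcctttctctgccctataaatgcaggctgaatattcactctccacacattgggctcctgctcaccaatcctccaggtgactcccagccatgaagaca
Each of the 5 α-defensin windows in the table held 1 CG, at position -239 from the start in Defcr20, Defcr21 and Defcr22 and at -144 in Defcr23 and Defcr-rs7. The Defcr21 and Defcr23 windows matched at 28.3% of positions without gaps. That count compares letters at fixed positions, so a shift of a few bases lowers it. The end of the Defcr21 window, from ccacacattggg on, recurs in the Defcr23 window at a shifted position. The percentage therefore does not measure how alike the windows are.

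Differences of the other cryptdin probes were small against their intervals. Defa1 read 9.09, 8.73 and 8.85 in WT and 9.19, 8.85 and 9.11 in KO, with a difference of 0.16 (95% interval -0.28 to 0.60). Defcr3 (Defa3) read 9.69, 9.12 and 9.24 in WT and 9.40, 9.25 and 9.44 in KO, a difference of 0.01, and its other probe gave -0.08. Defcr5 (Defa5) read 9.03, 8.57 and 8.79 against 8.89, 8.63 and 8.89, a difference of 0.01. Groups overlapped in all 3. Defcr6 read 9.88, 9.97 and 9.78 in WT and 9.97, 9.60 and 9.93 in KO (difference -0.04). Defcr-rs7 and Defcr-rs12 differed by -0.02 and 0.04. The probes of Defa1, Defcr3 and Defcr6 are listed under several cryptdin genes in the matrix's Ensembl symbol column, so a signal of one of these genes can come from its near-identical copies. That column lists the Defa1 probe also under Defcr-rs7 and Defcr23, and the Defcr22 probe under Defcr26, so how far the cryptdin probes measure separate genes is uncertain.

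Among the β-defensins, Defb42 on chromosome 14, a gene known from the epididymis, had the largest difference of all members. It read 8.42, 8.91 and 9.30 in WT columns 1 to 3 and 9.57, 9.53 and 9.56 in KO columns 1 to 3. The KO columns were nearly equal and the WT columns spread widely, with WT column 1 lowest, and the groups did not overlap. The means were 8.88 ± 0.44 and 9.55 ± 0.02 (SD, n = 3), a difference of 0.67 (SE 0.23, 95% interval 0.16 to 1.19, unadjusted p = 0.0145, limma adjusted p = 0.943). WT column 1 and KO columns 2 and 3 came from slide 1 and the other WT columns from slide 2. Within slide 1, with 1 WT column, the difference was 1.12, and the WT columns of slide 2 averaged 9.11. Without WT column 1 the difference was 0.45, and with the scanner files under their titles it was -0.11.

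Defb36 and Defb19, the latter a gene known from the testis, lie on chromosome 2 and also read higher in the KO columns without passing. Defb36 read 7.25, 7.27 and 7.11 in WT and 7.54, 7.32 and 8.23 in KO. The groups did not overlap, but KO column 3 stood well above the other 2. The difference was 0.49 (95% interval -0.05 to 1.02), 0.22 without KO column 3 and 0.08 with the scanner files under their titles. Defb19 read 10.46, 10.27 and 10.61 in WT and 10.67, 10.50 and 11.06 in KO, overlapping, with a difference of 0.29 (95% interval -0.17 to 0.76) 0.14 without KO column 3 and 0.05 at its other probe. The remaining member on that chromosome, Defb29, differed by 0.00.

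The promoter windows of Defb42, Defb36 and Defb41 are shown for the members that had groups without overlap on chromosomes other than 8. That of Defb42 is chr14:63046741-63047040 (plus strand), that of Defb36 chr2:152604077-152604376 (plus strand), and that of Defb41 chr1:18265089-18265388 (minus strand).
Defb42: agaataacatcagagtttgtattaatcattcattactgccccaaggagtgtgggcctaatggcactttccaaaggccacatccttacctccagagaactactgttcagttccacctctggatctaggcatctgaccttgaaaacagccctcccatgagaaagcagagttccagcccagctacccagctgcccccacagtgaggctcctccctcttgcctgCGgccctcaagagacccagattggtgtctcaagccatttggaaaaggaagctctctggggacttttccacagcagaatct
Defb36: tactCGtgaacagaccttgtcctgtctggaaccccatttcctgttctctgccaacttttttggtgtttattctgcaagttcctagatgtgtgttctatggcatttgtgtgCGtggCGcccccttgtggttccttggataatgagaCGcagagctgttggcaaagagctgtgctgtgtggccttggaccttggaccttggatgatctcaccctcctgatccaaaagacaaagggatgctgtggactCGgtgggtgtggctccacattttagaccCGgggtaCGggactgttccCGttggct
Defb41: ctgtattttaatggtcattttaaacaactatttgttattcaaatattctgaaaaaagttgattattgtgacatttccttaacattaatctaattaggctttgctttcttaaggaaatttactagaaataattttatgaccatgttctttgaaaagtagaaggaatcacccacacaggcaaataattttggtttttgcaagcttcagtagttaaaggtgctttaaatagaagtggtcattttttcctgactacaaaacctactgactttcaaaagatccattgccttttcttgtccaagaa
Defb36 had 8 CG in 300 bases, the most of the 21 members matched in the table, Defb42 had 1 and Defb41 had 0. The motif searched was CG, which reads the same on both strands. Over the 21 members the median was 1 CG per window and 5 windows had none (23.8%), against a median of 7 and 5.43% of all 32851 promoters. At most 3 CG were found in 17 of the 21 (81.0%), against 31.4% of all. No methylation measurement was part of the data used here, and a CG in a window says nothing of its state.

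Lower in the KO columns without passing were Defb50, Defb41 and Defb15. Defb50, on chromosome 8, read 7.86, 8.01 and 7.98 in WT and 7.51, 7.33 and 7.62 in KO. All KO values lay below all WT values and both groups were tight (SD 0.08 and 0.15). The difference was -0.46 (SE 0.19, 95% interval -0.87 to -0.05, unadjusted p = 0.0319, limma adjusted p = 0.999), between -0.53 and -0.38 when a column was left out, and -0.39 within slide 1. On the background-subtracted scale of the scanner files its processed intensity was 136, 207 and 312 on the arrays that equal WT columns 1 to 3, and 147 and 155 on those that equal KO columns 2 and 3. On that scale, which is not normalized between arrays, the WT array at 136 was the lowest of the 5. With the scanner files under their titles the difference was 0.45.

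Defb41, an epididymal gene on chromosome 1, read 6.75, 6.84 and 7.47 in WT and 6.75, 6.74 and 6.45 in KO. The groups did not overlap, though WT column 1 and KO column 1 were almost equal and WT column 3 stood apart. The difference was -0.37 (95% interval -0.88 to 0.14), and -0.15 within slide 1. It was also -0.15 without WT column 3, and 0.89 with the scanner files under their titles. Defb15 on chromosome 8 read 6.70, 6.49 and 6.50 in WT and 6.40, 6.46 and 5.96 in KO, with KO column 3 lowest (difference -0.29, 95% interval -0.75 to 0.16). Without KO column 3 the difference of Defb15 was -0.14, and with the scanner files under their titles 0.03.

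The β-defensins best known from barrier epithelia did not pass either. Defb1, the constitutive epithelial β-defensin, read 10.36, 10.07 and 9.42 in WT and 9.25, 9.70 and 10.04 in KO. Both groups spread over more than the difference of -0.29 (SD 0.48 and 0.40; 95% interval -0.90 to 0.32), and the other Defb1 probe gave -0.28. When a column was left out the difference of Defb1 lay between -0.55 (without WT column 3) and -0.08 (without WT column 1 or KO column 1). Defb3, an inducible gene of airway epithelium, read 10.12, 10.48 and 10.0 in WT and 10.14, 9.77 and 10.44 in KO, a difference of -0.08. Defb14, which attracts cells that carry the chemokine receptor Ccr6, read 6.97, 7.78 and 7.70 in WT and 7.58, 7.42 and 8.07 in KO, a difference of 0.21 that lay between -0.05 and 0.36 when a column was left out. Groups overlapped in all 3.

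Defb6 and Defb8 lie on chromosome 8 as well. Defb6 read 13.16, 13.24 and 13.11 in WT and 13.05, 12.91 and 13.47 in KO, a difference of -0.03 (95% interval -0.48 to 0.43). Defb8 read 7.21, 7.93 and 8.16 in WT and 8.31, 7.94 and 8.66 in KO, a difference of 0.54 (95% interval -0.07 to 1.14). WT column 1 was low and the groups overlapped narrowly, at 7.94 in KO against 8.16 in WT. Within slide 1 the difference of Defb8 was 1.09, and when a column was left out it lay between 0.26 and 0.73. Defb5 differed by -0.01 and Defb7 by -0.23 (-0.01 without KO column 2), with overlap. The other 10 tested members, between 5.29 and 7.81 in every column, differed by -0.19 to 0.12. Among them Defb34 alone had groups without overlap, at 5.94, 5.84 and 5.90 in WT against 5.69, 5.82 and 5.60 in KO, close to the background level.

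**Figure D3:**
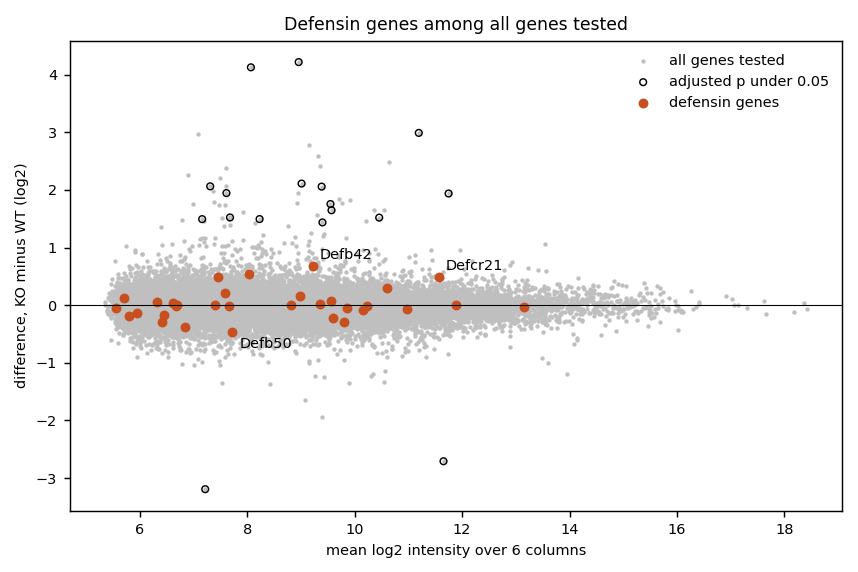
Difference between KO and WT columns (y axis, log2) against mean log2 intensity over 6 columns (x axis) for all 18636 genes tested (grey), the 17 genes with an adjusted p under 0.05 (rings) and the 32 tested defensin genes (filled). The defensin genes lie between -0.46 and 0.67, inside the cloud of all genes, and none carries a ring.

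The median SD of the tested members was 0.16 in WT and 0.20 in KO, against 0.22 and 0.26 over all genes, and the SE of the differences ran from 0.18 to 0.28. Of the β-defensins on chromosome 8, 5 of 16 differences were positive, and of those on chromosome 2, 3 of 3 (the smallest under 0.01); neither share was tested.

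Of 21 other tested genes for antimicrobial proteins, 2 passed as higher in the KO columns and 0 as lower. Of their differences 7 were positive and 14 negative, with a median of -0.27, against -0.01 for all genes. The 2 that passed were Wfdc12 (1.75, SE 0.20, limma adjusted p = 0.00542) and Slpi (1.52, SE 0.22, adjusted p = 0.0229), protease inhibitors with a whey acidic protein domain. With the scanner files under their titles they read -0.57 and -0.62 and 0 genes of the list passed. With slide as a block, over the 5 columns of known slide, the differences of Wfdc12 and Slpi were 1.76 and 1.08. That fit rests on KO columns 2 and 3 against WT column 1 alone, so it cannot decide the calls. Slpi lost its call when WT column 2 (limma adjusted p = 0.226), WT column 3 (0.186) or KO column 1 (0.134) was left out, and the mean over its probes was 0.67 (adjusted p = 0.401). At an unadjusted p under 0.05 stood 4 genes of the list (4.08% of all genes). Beside Wfdc12 and Slpi these were Reg3b (-1.15) and Reg3a (-0.69), both lower in KO. Of 16 genes that process, sense or induce defensins, 0 passed, with a median of -0.04. Mmp7, the protease named above, read -0.24 (-0.36 to -0.11 when a column was left out, the latter without KO column 2) and the interleukin-1 receptor Il1r1 -0.41 (-0.57 to -0.23, the latter without WT column 1). At an unadjusted p under 0.05 this list also had 0 genes.

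The epididymis antigens, from an organ where many β-defensins are made, gave 0 passing genes of 17 tested. At an unadjusted p under 0.05 stood 3 (4.08% of all genes), and 3 differences were positive and 14 negative, with a median of -0.22. Lcn5, an epididymal lipocalin, read -0.79 (SE 0.22, limma adjusted p = 0.551), and Crisp1, a sperm-coating protein, -0.61 (SE 0.20, adjusted p = 0.811). Both had all KO columns below all WT columns, as had 4 genes of the list in all (4.29% of all genes). In 1 gene, Lcn9 (0.27), all KO columns lay above all WT columns (3.93% of all genes).

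Of 10 T cell markers, all tested, 9 were positive with a median of 0.58, and the list's median per column was 7.96, 8.41 and 8.32 in WT and 8.86, 8.88 and 8.56 in KO. Cd8b1 read 0.97 and Dntt 0.91 (limma adjusted p = 0.241 for both). With the mean over probes of a gene they were smaller, at 0.56 and 0.72 (limma adjusted p = 0.69 and 0.447). None of the list passed, with 5 genes at an unadjusted p under 0.05 (4.08% of all genes). In 6 the KO columns lay above all WT columns (3.93% of all genes). Of 10 B and plasma cell markers 6 were positive (median 0.11, column medians 6.69 to 7.60 in WT and 7.40 to 7.84 in KO), with Jchain at 1.74 (1.11 without KO column 2) and Mzb1 at 0.56. The 3 markers that the sort excluded, Ptprc (CD45), Itgax (CD11c) and Enpep (Ly51), had column medians of 7.42 to 7.90 in WT and 7.37 to 8.04 in KO. All 3 differences were positive, but those of Ptprc (0.04) and Enpep (0.05) were small, with overlapping groups. Itgax read 5.49, 5.70 and 5.83 in WT, and all KO columns lay above these, the highest at 6.38 (difference 0.47, unadjusted p = 0.0385, limma adjusted p = 0.999). The 15 tested neutrophil markers had a median of -0.01 with 0 at an unadjusted p under 0.05. Camp, Ltf, S100a8 and S100a9 stand both in this list and in that of the antimicrobial proteins. The 8 dendritic cell and macrophage markers, Itgax again among them, had a median of 0.26, with 3 at an unadjusted p under 0.05 (4.08% of all genes). In 4 the KO columns lay above all WT columns (3.93% of all genes). Of these Ccr7 read 0.77 (limma adjusted p = 0.909, and 0.50 without KO column 2) and Tyrobp 0.70 (adjusted p = 0.999, and 0.35 without WT column 1). Over the 8 markers 6 differences were positive and 2 negative, those of Mrc1 (-0.65) and Csf1r (-0.16). The part of such cells in the differences of Defb42, Defcr21 and Defb50 was not tested, and in sorted bulk cells fewer cells of a type and less RNA per cell cannot be told apart.

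**Figure D4:**
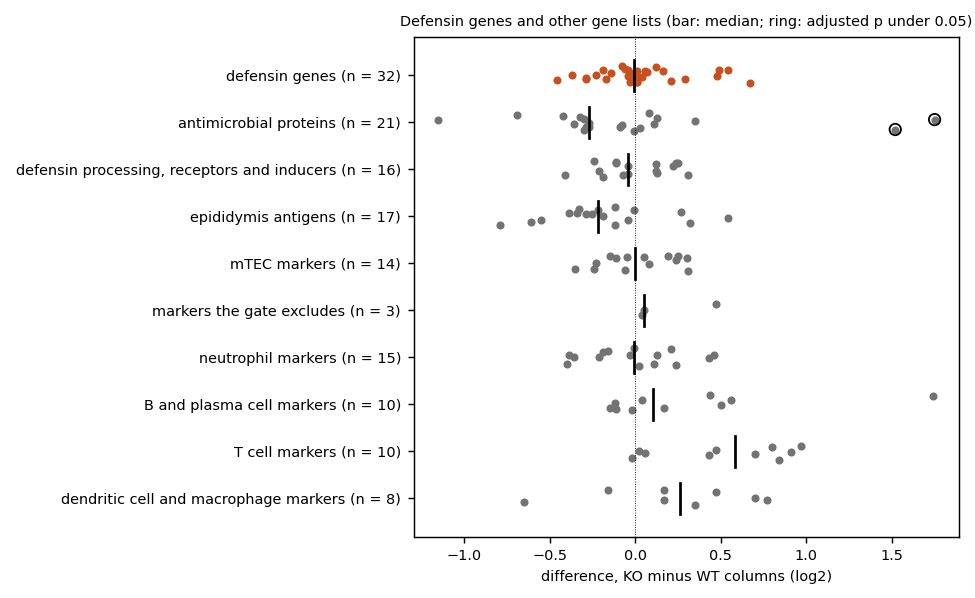
Difference between KO and WT columns (x axis, log2) for each tested gene (points, spread vertically for legibility) of the defensin genes and of 9 other lists (y axis, with the number of genes), with bars at the medians and rings around genes with an adjusted p under 0.05. The defensin bar is at -0.01, the T cell markers' at 0.58, and the rings are Slpi and Wfdc12.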

How the data were processed

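The authors' deposited matrix held a log2 intensity per probe in 6 columns, whose shared maximum and near-equal medians (7.13 to 7.14) are the pattern quantile normalization leaves; no source used here names the tool. The deposited scanner files held linear intensity and a flag for spots well above background, made with Agilent Feature Extraction (10.6 per the submitters' processing notes); 73.5% to 81.3% of probes carried the flag and 0 spots were saturated. From the authors' deposited table the adjusted p-values (FDR) were read for counts; its log2 ratio is not printed. The scanner files' processed signal is background-subtracted; no source used here says whether the matrix is.

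Genes were the matrix's symbols, tested where the brightest probe was flagged on at least 3 arrays. KO and WT columns were compared with limma (version 3.58.1, R version 4.3.3; lmFit, then eBayes), p-values were adjusted by Benjamini-Hochberg across all tested genes at a threshold of 0.05, and the script was tested on simulated data. Named were the 20 tested members of highest mean, the 3 of largest difference in each direction, passing genes and up to 2 genes of smallest p per list; members named beyond these mark the filter's edge, promoter sharing or groups without overlap. The values of 1 tested α-defensin gene are not reported here; it remains in all counts and medians. Members and lists were chosen with earlier results of these data known. Sequences came from RefSeq tables (GRCm38.p6), where 34 of the 39 members matched a current gene and 21 a promoter.

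Number of arrays limits precision. The deviations of same-numbered WT and KO columns from their group means did not run together (correlations -0.315, -0.181 and -0.354). The main comparison therefore used no pairing. WT columns 2 and 3 came from slide 2 and KO columns 2 and 3 from slide 1, so these correlations cannot decide whether the numbers pair the samples.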

Additional observations from a re-analysis of the deposited data

How the results depend on the processing

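The number of defensin genes called was 0 under all 14 alternatives, with 1 to 4 at an unadjusted p under 0.05 (limma), and their median difference stayed between -0.05 and 0.14. Of 293 values of 21 named members, 240 kept their sign and 53 reversed. The smallest limma adjusted p was 0.616. Changing the detection filter or the variance estimate, or adding the replicate block, leaves a member's difference between group means as it was. The mean over probes leaves it so for members with 1 probe. Part of the 240 kept signs was therefore fixed in advance, and the tally does not measure how robust the signs are. The 17 calls over all genes became 9 to 32 when 1 replicate was left out (9 without WT 2, 11 without WT 3, 32 without KO 3). They became 0 under the scanner titles (784 at an unadjusted p under 0.05) and 0 with normexp on the scanner files, also grouped by title (504). The last 2 settings change genotype labels and signal processing together, and they put 4 of the 5 matched arrays with the other genotype. The arrays titled WT and KO lay on different slides, so title and slide cannot be told apart. With slide as a block, the difference rests on KO columns 2 and 3 against WT column 1 alone, so that setting cannot decide a call. The 2 calls of the other lists became 1 with no filter on dim probes (Slpi, limma adjusted p = 0.0614) and 1 with the mean over probes. They became 0 under the scanner titles, 0 under the scanner titles with normexp, and 1 to 2 when a replicate was left out. The replicate block gave 21 calls over all genes, 0 of them defensins. The cause of these changes was not tested.

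Reversed values by setting were as follows. With the mean over probes, Defcr3 was -0.03. With slide as a block (5 columns, without KO 1), Defa1 was -0.11, Defb5 0.13, Defb6 0.03, Defcr20 -0.05, Defcr3 -0.34 and Defcr5 -0.27. Under the scanner titles, Defb15 was 0.03, Defb19 -0.02, Defb3 0.25, Defb41 0.89, Defb42 -0.11, Defb5 0.06, Defb50 0.45, Defb6 0.03, Defb7 0.21, Defcr22 0.04, Defcr23 0.09, Defcr3 -0.13, Defcr6 0.25, Slpi -0.62, Wfdc12 -0.57, Il1r1 0.16, Mmp7 0.47, Lcn5 1.82, Crisp1 0.23, Dntt -0.39, Ccr7 -0.15, Itgax -0.15 and Jchain -1.01. Under the scanner titles with normexp, Defa1 was -0.05, Defb19 -0.07, Defb3 0.12, Defb36 -0.09, Defb41 0.50, Defb42 -0.14, Defb50 0.23, Defb7 0.16, Defcr22 0.02, Defcr23 0.06, Defcr3 -0.17, Defcr6 0.16, Slpi -0.62, Wfdc12 -0.67, Il1r1 0.06, Lcn5 0.61, Crisp1 0.18, Ccr7 -0.18, Itgax -0.14 and Jchain -0.84. Leaving out a replicate reversed Defcr3 (-0.10 to 0.18), Defcr5 (-0.11 to 0.12), Defb6 (-0.19 to 0.09), Defb3 (-0.24 to 0.09), Defcr22 (-0.12 to 0.10), Defcr6 (-0.11 to 0.07), Defcr23 (-0.24 to 0.11), Defb5 (-0.11 to 0.14) and Defb14 (-0.05 to 0.36).

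Normexp on the mean signal was not run, since the files used here hold the median signal; normexp on the median signal was chosen after seeing the data. Signal over background limits Defb34, Defb35 and the 7 members under the filter.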

Other observations

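The matrix lists 2 further β-defensin genes under clone names, outside the naming rule. Defb22 (9230002F21Rik) read 6.08, 6.22 and 6.13 in WT and 6.52, 5.96 and 6.30 in KO, a difference of 0.12. Defb20 (9230107O10Rik) read 6.77, 8.43 and 7.56 in WT and 8.02, 7.13 and 6.96 in KO, a difference of -0.22 with an SE of 0.39, wider than that of any tested member. Groups overlapped in both.

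A shared order of the columns was noticed after the values were seen. In 5 of the 11 tested α-defensin genes (Defa1, Defcr3, Defcr5, Defcr20 and Defcr23) WT column 1 was the highest and WT column 2 the lowest of the WT columns, and KO column 2 the lowest of the KO columns. Over all 32 tested members 6 had this order (18.8%), against 6.49% of all genes. The probes of these genes can share targets, and the order was not tested.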
